A study of Homo sapiens with 24 samples.

Results

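The cytosolic ribosomal protein genes were read in U87 MG, an established human glioblastoma cell line, after proton therapy (PT) given alone or together with Si306, an inhibitor of SRC family kinases. Members were the gene spots whose name was RPL or RPS followed by a number, with an A, X or L allowed directly after it, together with RPLP0, RPLP1 and RPLP2. The stress-related copy RPS27L, the RPS6 kinases and pseudogenes were left out. The rule found 78 of the 30982 gene names on the array, 30 of the small and 48 of the large subunit, carried by 192 of 41000 probes. All 78 were tested, among 22859 gene names in all.

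Total RNA was collected 24 h after treatment and hybridised to 2-colour whole genome arrays. The treated RNA carried Cy5 and its control carried Cy3 on every array. The arrays covered 4 configurations. U87 2 Gy and U87 10 Gy were cells exposed to that proton dose, each set against untreated U87 cells. U87 Si306 + 2 Gy, like U87 Si306 + 10 Gy, meant cells given 10 µM Si306 and the proton dose, each set against cells exposed to the same dose without Si306, so that their ratio holds the change on adding Si306. No array held Si306 without protons.

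The 24 deposited scans came from 8 arrays scanned 3 times each. Not used were 2 scans whose dose label differed from that of the other scans of their array. This left 22 scans and n = 2 arrays in each configuration. Scans of 1 array were averaged before the fit, so each p-value below measures only the spread between arrays, which may be technical and whose small number limits the precision. The 4 PT arrays lay on 1 slide and the 4 Si306 arrays on another, and dyes were not swapped. Within a configuration, a dye effect of a probe and the treatment cannot be told apart. Of the markers of the line, VIM, CD44, FN1, NES and GFAP were well above background on 8 arrays, CHI3L1 on 4 and S100B on 1. Among markers of other cell types, PTPRC and KRT5 were above background on 0 arrays, whereas CD3E, CD14 and SYT1 were above it on 8.

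Each ribosome pairs a small subunit, which reads the mRNA, with a large subunit, which joins the amino acids. Ribosomal proteins are needed in nearly equal numbers, and their mRNAs are among the most abundant of a growing cell. Most of these mRNAs start with a C followed by an unbroken run of C and U. This 5′ terminal oligopyrimidine (TOP) tract lets the mTOR pathway, with LARP1, set how strongly they are translated and how stable they are.

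The starts of 8 members are shown because these genes were the most or least changed, or are known for their role. Each stretch runs 5′ to 3′ from 20 bases before to 20 bases from the annotated start on, on the strand of the gene. The sequences are RefSeq's, on GRCh38.p14, and capitals mark a TOP tract, here a C followed by at least 4 further C or T, beginning no more than 3 bases from the start. RPL9 lies at chr4:39458903-39458942 on the minus strand, RPL13A at chr19:49487588-49487627 on the plus strand, RPL35 at chr9:124861938-124861977 on the minus strand and RPL39 at chrX:119791611-119791650 on the minus strand. RPLP2 lies at chr11:809947-809986 on the plus strand, RPS6 at chr9:19380217-19380256 on the minus strand, RPL37A at chr2:216498824-216498863 on the plus strand and RPL4 at chr15:66504836-66504875 on the minus strand.
RPL9: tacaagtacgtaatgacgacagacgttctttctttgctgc
RPL13A: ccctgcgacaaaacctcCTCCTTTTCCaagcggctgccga
RPL35: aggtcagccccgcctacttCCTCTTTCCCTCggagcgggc
RPL39: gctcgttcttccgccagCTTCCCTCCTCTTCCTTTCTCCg
RPLP2: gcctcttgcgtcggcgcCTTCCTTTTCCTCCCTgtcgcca
RPS6: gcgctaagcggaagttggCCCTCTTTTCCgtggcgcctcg
RPL37A: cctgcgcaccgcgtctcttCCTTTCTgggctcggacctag
RPL4: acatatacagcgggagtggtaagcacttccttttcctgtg
RPL9 and RPL4 hold no such tract at these starts, although both hold a pyrimidine run a few bases further on.

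Adding Si306 to PT raised most ribosomal protein genes by a small step. In U87 Si306 + 2 Gy, 73 of 78 members (93.6%) were up regulated at an adjusted p under 0.05 and 0 were down regulated by limma (74 and 0 at an unadjusted p under 0.05). Over all genes tested, 38.6% were called higher and 27.9% lower in that configuration. In U87 Si306 + 10 Gy, 64 of 78 (82.1%) were up regulated and 3 were down regulated, beside 35.2% and 27.2% of all genes. The steps were below 2-fold in nearly every case, and on the brightest probes only RPL9 in U87 Si306 + 2 Gy passed the 2-fold limit that made a gene a DEG. Probes of RPL9, RPL35 and RPL39 that were not the brightest passed it there as well. That limit was passed in either direction by 0.727% of all genes at 2 Gy and by 0.372% at 10 Gy.

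The median log2 fold change of the members was 0.47 in U87 Si306 + 2 Gy, with quartiles of 0.31 and 0.61, against a median of 0.04 over all genes. In U87 Si306 + 10 Gy it was 0.35, with quartiles of 0.16 and 0.49, against 0.03. The medians on the single arrays were 0.51 and 0.44 at 2 Gy and 0.33 and 0.34 at 10 Gy, whereas the 4 PT arrays lay between -0.01 and 0.02. On each Si306 array, from 71 to 76 members had a ratio above 0. Small and large subunit genes had medians of 0.47 and 0.46 at 2 Gy and of 0.35 and 0.33 at 10 Gy.

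**Figure D1:**
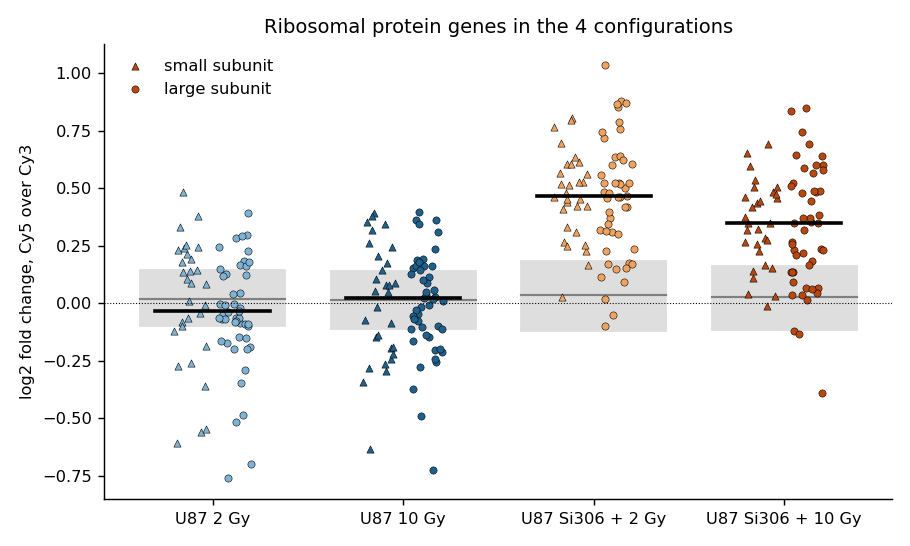
Log2 fold change (Cy5 over Cy3) of each ribosomal protein gene in the 4 configurations; triangles are small subunit genes, circles large subunit genes, the black bar their median, the grey box the quartiles of all genes tested and the grey line their median. The medians of 0.47 and 0.35 with Si306 lie above the grey boxes, and those of -0.03 and 0.02 with PT alone lie inside them; under median centring in place of loess the PT medians were 0.45 and 0.43.

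Of the 73 members called higher at 2 Gy, 63 were also called higher at 10 Gy, where they made up 63 of 64. The 10 called only at 2 Gy included RPL3, RPL11, RPL24, RPL37A and RPS23, and the 1 called only at 10 Gy was RPL39L. The size of the step varied among members. At 2 Gy, 22 members had a log2 fold change of 0.6 or more, 38 lay between 0.3 and 0.6, 16 between 0 and 0.3 and 2 just below 0. At 10 Gy the same bands held 10, 33, 31 and 3 members, and 1 lay below -0.3.

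RPL9, a large subunit protein, had the highest value. Its ratio in U87 Si306 + 2 Gy rests on 1 array, at a log2 ratio of 1.04, because its spots on the other array were flagged by the scanner software. The fitted log2 fold change was 1.04 ± 0.06 (SE; adjusted p = 2.37e-07), or 2.05-fold, with the spread taken from the other configurations, since the lone array was assumed to vary like theirs. This value has no replicate. In U87 Si306 + 10 Gy its arrays stood at 0.83 and 0.87, giving 0.85 ± 0.04 (adjusted p = 1.27e-07). The other kept probes of RPL9 stood at 1.01 and 1.18 at 2 Gy and at 0.70 and 0.98 at 10 Gy, so all 3 probes rose in both configurations. In the PT configurations RPL9 stood at 0.04 and 0.10 and passed the test in neither, while its other probes were called in opposite directions in U87 2 Gy, at -0.19 and 0.24.

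RPL13A, which also leaves the ribosome to hold back translation of some inflammatory mRNAs, showed arrays at 0.96 and 0.80 at 2 Gy and at 0.70 and 0.79 at 10 Gy. Its log2 fold changes were 0.88 ± 0.05 (adjusted p = 1.42e-07) and 0.74 ± 0.05 (adjusted p = 5.36e-07). The other 2 probes of RPL13A stood lower, at 0.57 and 0.48 at 2 Gy and at 0.45 and 0.37 at 10 Gy. RPL35, which lines the mouth of the peptide exit tunnel, showed 0.93 and 0.81 at 2 Gy and 0.81 and 0.86 at 10 Gy. Its log2 fold changes were 0.87 ± 0.04 (adjusted p = 2.08e-08) and 0.84 ± 0.04 (adjusted p = 4.29e-08). Its other 3 probes stood at 1.01, 1.03 and 0.46 at 2 Gy and at 0.94, 0.97 and 0.19 at 10 Gy. For both genes the PT arrays, set against another control and on another slide, lay at or below 0.39. Both genes were named for their high values with Si306, so a gap between the 2 kinds of array is no further support.

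**Figure D2:**
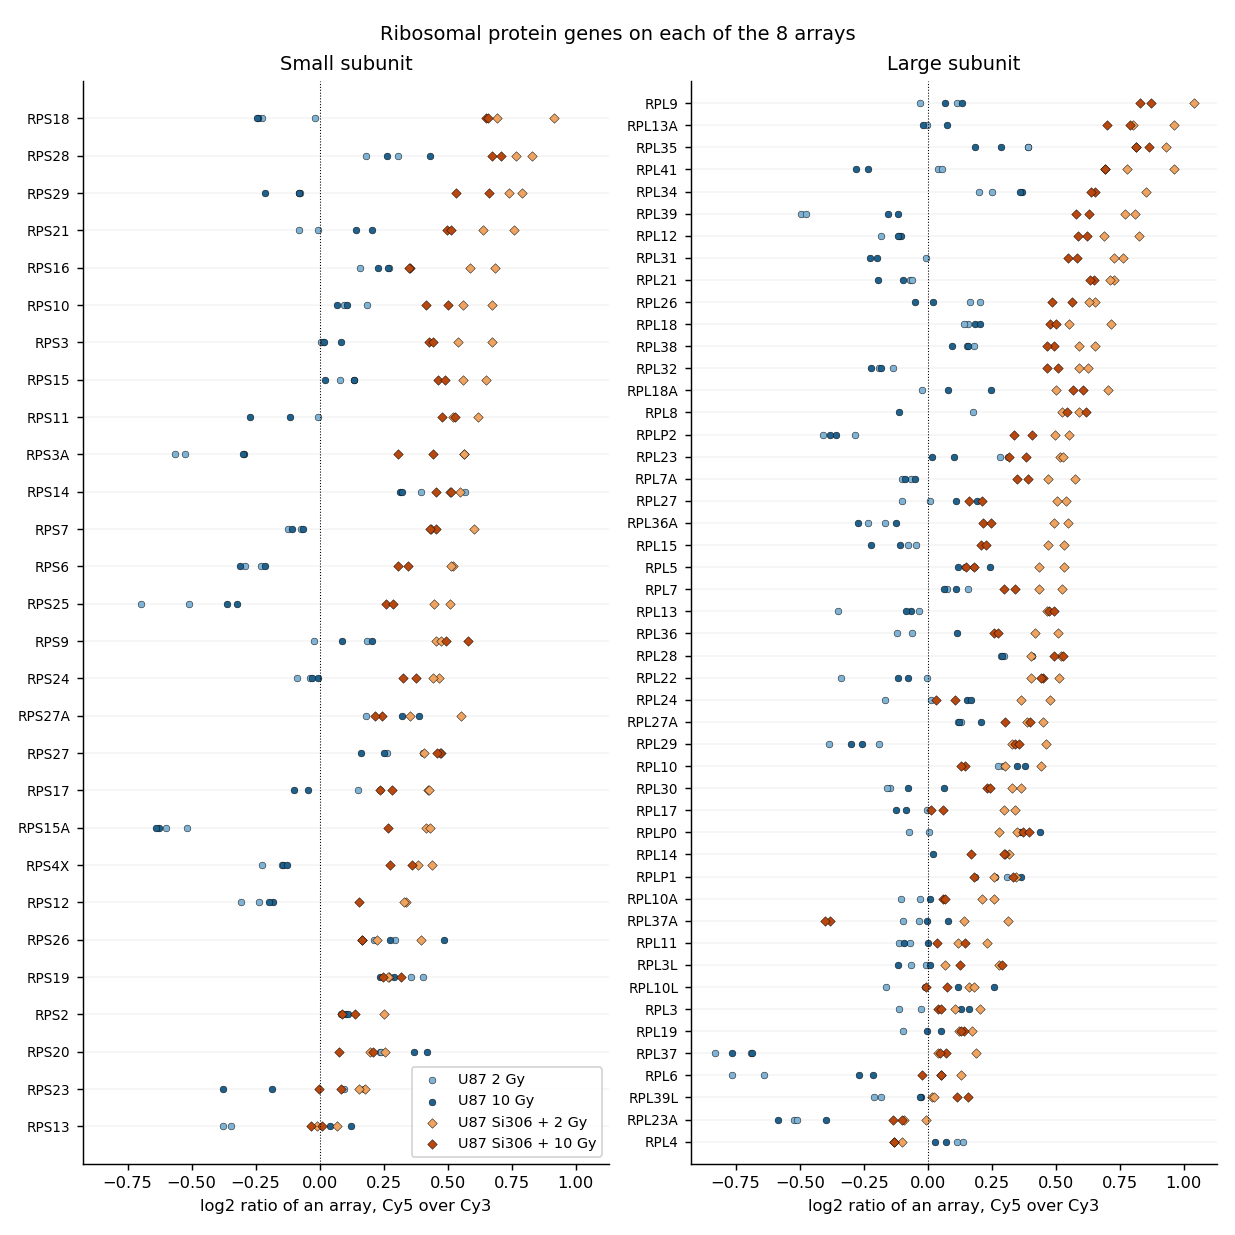
Log2 ratio (Cy5 over Cy3) of 76 of the 78 ribosomal protein genes on each of the 8 arrays, small subunit on the left and large subunit on the right, ordered by the value in U87 Si306 + 2 Gy; circles are arrays of PT alone and diamonds arrays with Si306. The 2 arrays of a configuration lay at most 0.34 apart, RPL37A has both arrays of U87 Si306 + 10 Gy near -0.39, and values missing for a gene are spots flagged on that array.

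On the brightest probes, the members with the smallest calls at 2 Gy were RPL37, RPL19 and RPL3. RPL37 stood at 0.19 and 0.04 on the arrays (0.11 ± 0.05, adjusted p = 0.0432), while its other probe stood at 0.31 (adjusted p = 0.000433). RPL19 stood at 0.12 and 0.17 (0.15 ± 0.03, adjusted p = 0.00314) and RPL3, next to the peptidyl transferase centre, at 0.20 and 0.11 (0.16 ± 0.04, adjusted p = 0.00305). The other probes of RPL3 stood at 0.18 and -0.07. In the scanner software's own log ratios RPL19 turned to -0.04. The 5 members that did not pass the test at 2 Gy were RPL4, RPL6, RPL23A, RPL39L and RPS13, at -0.10, 0.09, -0.05, 0.02 and 0.03. The value of RPL4 rests on 1 array. For 3 of these genes other probes were called higher, for RPS13 at 0.62 and 0.33, for RPL6 at 0.52 and for RPL23A at 0.16 and 0.25.

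At 10 Gy the test called RPL37A, RPL4 and RPL23A lower. RPL37A, a zinc-binding large subunit protein, stood at 0.31 and 0.14 in U87 Si306 + 2 Gy (0.23 ± 0.04, adjusted p = 0.000743) and at -0.38 and -0.40 in U87 Si306 + 10 Gy (-0.39 ± 0.04, adjusted p = 1.5e-05). RPL37A was named for its value at 10 Gy and for this difference, so the gap between the doses is no further support. The other probe of RPL37A stood at 0.25 and 0.01, so the fall below 0 was seen with 1 of its 2 probes. RPL4, whose long loop reaches into the exit tunnel, stood at -0.13 on both arrays (-0.13 ± 0.03, adjusted p = 0.00514). RPL23A, the docking point of the signal recognition particle, stood at -0.10 and -0.14 (-0.12 ± 0.04, adjusted p = 0.0372). With median centring in place of loess, these 3 values turned to 0.26, 0.42 and 0.60, and with the mean over its probes RPL23A stood at 0.03.

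By role, the members of the stalk that recruits elongation factors rose with Si306, as most members did. RPLP0, RPLP1, RPLP2 and RPL12, which carry the stalk or sit at its base, were called higher in both Si306 configurations, 4 of 4 each time, beside 93.6% and 82.1% of all members. RPLP0 stood at 0.35 and 0.28 at 2 Gy and at 0.37 and 0.40 at 10 Gy. RPLP1 stood at 0.26 and 0.34, and at 0.18 and 0.33. RPLP2 stood at 0.55 and 0.50, and at 0.41 and 0.34. RPL12 stood at 0.76 ± 0.04 and 0.60 ± 0.04 on its brightest probe and at 0.39 and 0.41 on the other. Every array value of these genes was above 0 with Si306.

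RPL5 and RPL11 bind the 5S RNA, and outside the ribosome this particle binds MDM2, the ubiquitin ligase of p53. RPL5 stood at 0.53 and 0.44 in U87 Si306 + 2 Gy (0.48 ± 0.04, adjusted p = 1.32e-06) and at 0.15 and 0.18 in U87 Si306 + 10 Gy (0.17 ± 0.04, adjusted p = 0.00352). Its other probe stood at 0.29 and 0.00. RPL11 stood at 0.12 and 0.23 (0.17 ± 0.04, adjusted p = 0.00339), and at 0.04 and 0.15 (0.09 ± 0.04, adjusted p = 0.0768). RPL11 thus passed the test at 2 Gy only, and in the scanner software's log ratios it stood at -0.05 there.

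RPS6 is phosphorylated by the S6 kinases downstream of mTOR. It stood at 0.52 and 0.51 with Si306 at 2 Gy (0.52 ± 0.04, adjusted p = 3.79e-07) and at 0.31 and 0.34 at 10 Gy (0.32 ± 0.04, adjusted p = 1.46e-05). RPS27A is made as a fusion with ubiquitin, which it releases. Its log2 fold changes were 0.45 ± 0.05 (adjusted p = 1.47e-05) and 0.23 ± 0.05 (adjusted p = 0.0017). RPS14, of the platform of the small subunit, showed 0.53 ± 0.04 and 0.48 ± 0.04, and RPS19, needed for small subunit assembly, 0.27 ± 0.03 and 0.28 ± 0.03. The other probe of RPS19 stood at 0.07 (adjusted p = 0.11) at 2 Gy. All 4 small subunit genes were up regulated at both doses.

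RPL22, which is not essential for the ribosome and is often truncated in tumours, stood at 0.51 and 0.40 at 2 Gy (0.46 ± 0.06, adjusted p = 7.33e-05) and at 0.45 and 0.44 at 10 Gy (0.45 ± 0.06, adjusted p = 0.000102). Its 4 probes did not move together. Beside the brightest probe, at 0.46 and 0.45, a probe of the same transcript stood at 0.48 and 0.52, another of it at -0.39 and -0.44, and a probe of another transcript record at -0.23 and 0.01. The direction for RPL22 therefore depended on the probe.

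Of 10 members around the peptide exit tunnel, 8 were higher and 0 lower at 2 Gy and 6 were higher and 2 lower at 10 Gy. RPL39, which lines the lower part of the tunnel, was the highest of them after RPL35 on the brightest probes, with arrays at 0.77 and 0.81, and at 0.63 and 0.58. Its other probe stood at 1.12 and 0.73. Among 5 members at the mRNA entry and the decoding centre, 5 and 4 were higher. Of 9 members mutated in Diamond-Blackfan anaemia, a failure of red cell formation, 9 and 8 were higher. The 4 members on the X chromosome, RPL10, RPL36A, RPL39 and RPS4X, were higher at both doses. Since 93.6% and 82.1% of all members were called higher, these counts set no role apart.

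Some members are copies that other tissues use. RPL3L is a copy of RPL3 used in striated muscle, and RPL10L and RPL39L are copies of RPL10 and RPL39 used in the testis. RPL3L stood at 0.17 ± 0.06 (adjusted p = 0.0178) with Si306 at 2 Gy and at 0.21 ± 0.06 (adjusted p = 0.00684) at 10 Gy, on a dim probe at percentile 37.3 of mean intensity. With median centring it turned to -0.19 and -0.01. RPL39L stood at 0.02 ± 0.03 (adjusted p = 0.601) and 0.14 ± 0.03 (adjusted p = 0.00273), on arrays at 0.01 and 0.02, and at 0.12 and 0.16. RPL39 stood at 0.79 ± 0.03 and 0.60 ± 0.03, so at each dose the arrays of the copy did not overlap those of its parent.

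RPL10L stood at 0.17 ± 0.05 and 0.03 ± 0.05, and RPL10 at 0.37 ± 0.04 and 0.14 ± 0.04. The probes of RPL10L and RPL10 hold a run of 23 bases in common, shown because RNA of the parent could bind it.
RPL10L and RPL10: atcatgtccatccgcaccaagct
The longest run shared by the probes of RPL39L and RPL39 was 6 bases, and for RPL3L and RPL3 it was 7. Only probes were compared with each other, so how far RNA of RPL39 or RPL3 matches the probe of its copy was not tested. How much of the RPL10L signal came from RPL10 was not tested.

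The members were also split by the GC content of their probes. The 27 members on probes under 45% GC had medians of 0.45 and 0.27, and the other 51 had 0.48 and 0.35. Nearly all member probes were bright, 65 of 78 at or above the 99th percentile of mean intensity over the genes tested. The 164 other genes as bright as that had medians of 0.14 at 2 Gy and 0.08 at 10 Gy, and 53.7% and 48.8% of them were called higher. These bright genes lay between the members and all genes. The part of intensity in the members' step was not tested beyond these values.

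The size of the step depended on how intensity was handled, and the sign of the members' median did not. In the scanner software's log ratios the members' medians were 0.32 and 0.24, against 0.01 and -0.03 for the other bright genes. There 58 of 78 members were called higher and 3 lower at 2 Gy, and 49 were higher and 7 lower at 10 Gy, beside 34.4% and 28.9%, then 32.6% and 27%, of all genes. With each array centred on its median and no loess, the members stood at 1.47 and 1.00 and the other bright genes at 1.12 and 0.77. With the 60 members measured on every array, 56 were higher and 0 lower at 2 Gy, and 49 were higher and 2 lower at 10 Gy. Of 7 tested markers of other cell types, 6 were called higher at 2 Gy and 5 at 10 Gy, with values from 0.02 to 0.33 and from 0.05 to 0.35. Their part in the result was not tested.

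**Figure D3:**
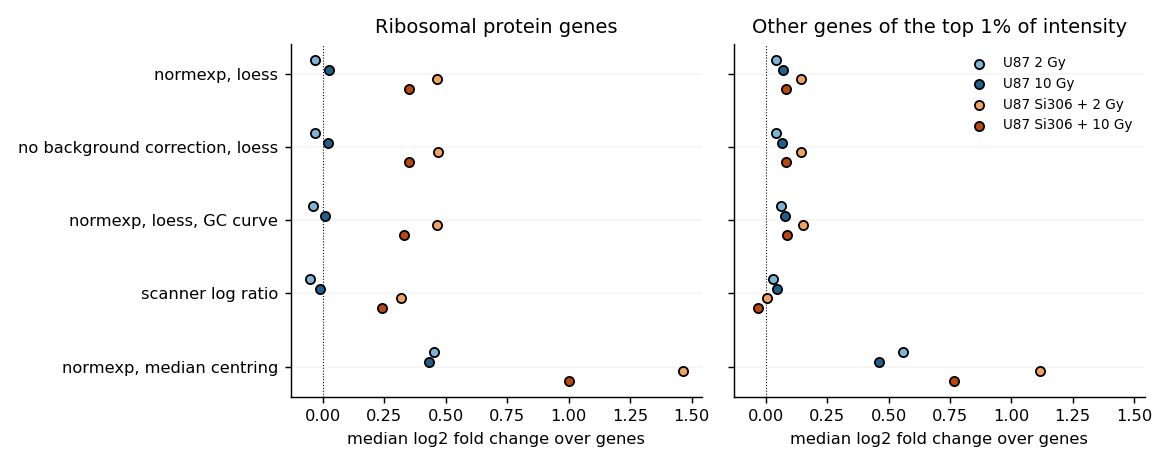
Median log2 fold change over the ribosomal protein genes (left) and over the 164 other genes of the top 1% of mean intensity (right) under 5 ways of background correction and normalization; each point is 1 configuration. With Si306 the members' medians stayed above 0 in each way, from 0.24 to 1.47, whereas the PT medians lay near 0 except under median centring, where they rose to 0.45 and 0.43.

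Probes of the same gene mostly went the same way with Si306. Over the 189 kept member probes, 173 were higher and 2 lower at 2 Gy, and 151 were higher and 6 lower at 10 Gy. Among 54 members with at least 2 kept probes, calls in both directions occurred in 1 gene at 2 Gy (RPL22) and in 4 at 10 Gy (RPL3, RPL22, RPL23A and RPS2). All of the 14 probes of RPL21 were higher at 2 Gy, whereas 7 were higher at 10 Gy, with values there from -0.06 to 0.64. RPS28 was split, with its bright probe at 0.80 and 0.69 and a probe of 65% GC at -0.01 and 0.01. Such genes are named here for their probes, and were chosen after their values were seen.

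With PT alone the ribosomal protein genes did not move as a group. In U87 2 Gy, 29 of 77 members (37.7%) were up regulated and 20 (26%) down regulated, beside 32.2% and 25% of all genes. In U87 10 Gy, 26 of 78 (33.3%) were up and 25 (32.1%) down regulated, beside 31.2% and 26.3%. These shares were near the background. The median log2 fold change was -0.03 at 2 Gy and 0.02 at 10 Gy, against 0.02 and 0.01 over all genes. No member passed 2-fold, which 0.727% and 0.967% of all genes did. Without loess, under median centring, the split was 67 higher and 3 lower at 2 Gy and 69 higher and 2 lower at 10 Gy, so the directions given below for PT hold for loess-normalised ratios. The brightest probe of RPL14 had no value in U87 2 Gy, where its spots were flagged on both arrays. The other kept probes of RPL14 stood there at 0.19, called higher, and at -0.08, not called.

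Single members nevertheless moved by more than the spread between arrays. RPL37, a zinc-binding protein of the large subunit, was the lowest in both PT configurations. Its arrays stood at -0.83 and -0.69 in U87 2 Gy (-0.76 ± 0.05, adjusted p = 2.02e-07) and at -0.76 and -0.69 in U87 10 Gy (-0.73 ± 0.05, adjusted p = 2.13e-07). Its other probe stood at -0.51 and -0.43. RPS15A, a small subunit protein, stood at -0.60 and -0.52 (-0.56 ± 0.03) and at -0.63 and -0.64 (-0.63 ± 0.03, adjusted p = 2e-07). That probe of RPS15A had 26.7% GC, and the other 2 probes stood at -0.29 and -0.31 in U87 2 Gy and at -0.02 (adjusted p = 0.704) and -0.15 in U87 10 Gy. At 10 Gy this was the widest spread between probes of a member. RPL23A stood at -0.51 ± 0.04 and -0.49 ± 0.04. These 2 PT configurations share the untreated control condition, so a like value in both is not independent support.

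RPL6 stood at -0.76 and -0.64 in U87 2 Gy (-0.70 ± 0.04, adjusted p = 1.51e-07) and at -0.27 and -0.22 in U87 10 Gy (-0.24 ± 0.04, adjusted p = 0.000362). With median centring the value at 10 Gy turned to 0.15, and with the mean over both probes to 0.04. Its other probe stood at 0.03 in U87 2 Gy and was called higher in U87 10 Gy, at 0.33 (adjusted p = 0.000242), so the fall was seen with 1 of 2 probes. RPS25, which some viral RNAs need to enter the ribosome, stood at -0.70 and -0.51 (-0.61 ± 0.04, adjusted p = 7.45e-07) and at -0.36 and -0.32 (-0.34 ± 0.04, adjusted p = 4.71e-05). With median centring its value at 10 Gy turned to 0.07.

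The highest members in U87 2 Gy were RPS14, RPL35 and RPS19. RPS14 stood at 0.57 and 0.40 (0.48 ± 0.04, adjusted p = 2.85e-06), RPL35 at 0.39 on both arrays (0.39 ± 0.04, adjusted p = 8.33e-06) and RPS19 at 0.36 and 0.40 (0.38 ± 0.03, adjusted p = 3.62e-06). In U87 10 Gy the highest were RPLP0, RPS20 and RPS26. RPLP0, which is often used as a reference gene in quantitative PCR, stood at 0.44 and 0.36 (0.40 ± 0.04, adjusted p = 3.88e-06). RPS20 stood at 0.42 and 0.37 (0.39 ± 0.04, adjusted p = 6.09e-06) and RPS26, which contacts mRNA at the exit site, at 0.48 and 0.27 (0.38 ± 0.05, adjusted p = 0.000104).

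Of the members picked for their role, RPLP2, RPS6 and RPL39 were down regulated with PT alone at both doses on their brightest probes. RPLP2 stood at -0.41 and -0.29 in U87 2 Gy (-0.35 ± 0.04, adjusted p = 1.83e-05) and at -0.38 and -0.36 in U87 10 Gy (-0.37 ± 0.04, adjusted p = 9.56e-06). RPS6 stood at -0.26 ± 0.04 in both, with adjusted p = 8.91e-05 and 7.83e-05. RPL39 stood at -0.48 ± 0.03 (adjusted p = 4.65e-07) and -0.14 ± 0.03 (adjusted p = 0.00403). The other probe of RPL39 stood at -0.52 in U87 2 Gy and at -0.08 in U87 10 Gy, where it was not called. With median centring these genes turned positive in PT, RPLP2 to 0.17 and 0.06, RPS6 to 0.23 and 0.15 and RPL39 to 0.05 and 0.26. RPL39L was called lower in U87 2 Gy, at -0.20 ± 0.03 (adjusted p = 0.000274), but not in U87 10 Gy. The PT cells are the treated side of the PT arrays and the control side of the Si306 arrays, so an error in that shared condition would move the 2 kinds of ratio in opposite directions.

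RPL5 and RPS27A were up regulated with PT alone on their brightest probes. RPL5 stood at 0.16 ± 0.04 (adjusted p = 0.00419) and 0.18 ± 0.04 (adjusted p = 0.00218), and its other probe was called higher in U87 2 Gy, at 0.35, and lower in U87 10 Gy, at -0.09 (adjusted p = 0.0404). RPS27A stood at 0.18 ± 0.07 (adjusted p = 0.0384) and 0.35 ± 0.05 (adjusted p = 0.000101). Its value in U87 2 Gy rests on 1 array and takes its spread from the other configurations, and its other probe stood there at -0.07 (adjusted p = 0.0956). RPLP1 was up regulated as well, at 0.25 ± 0.05 and 0.31 ± 0.05. So was RPL10, at 0.28 ± 0.04 (adjusted p = 7.56e-05) and 0.36 ± 0.04 (adjusted p = 1.02e-05). Of the 5 kept probes of RPL10, 2 were called higher at 2 Gy and 4 at 10 Gy. RPL11 passed the test at neither dose, at -0.09 ± 0.04 (adjusted p = 0.0843) and -0.05 ± 0.04 (adjusted p = 0.364). RPL22 stood at -0.17 ± 0.06 (adjusted p = 0.0368) in U87 2 Gy, on arrays at -0.34 and 0.00, and at -0.10 ± 0.06 (adjusted p = 0.211) in U87 10 Gy. With median centring its value at 2 Gy was 0.20.

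In PT, members on probes under 45% GC had medians of -0.09 and -0.10, and the others 0.00 and 0.08. In U87 2 Gy 26.9% of the former were called higher and 46.2% lower, against 43.1% and 15.7% of the others. In U87 10 Gy these shares were 11.1% and 51.9%, against 45.1% and 21.6%. Of the members named as low in PT, RPL37, RPL6, RPL23A, RPL39, RPLP2 and RPS15A lie on probes under 45% GC. RPS25 and RPS6 lie on probes of 45% GC. The 1145 other genes on probes of at least 60% GC had a median of 0.10 in U87 2 Gy. After a curve on probe GC was taken out, 27 members were higher and 23 lower at 2 Gy and 27 were higher and 25 lower at 10 Gy, close to the counts without it. Among 54 members with at least 2 kept probes, calls in both directions occurred in 8 genes at 2 Gy, RPS13, RPL9 and RPLP0 among them, and in 4 at 10 Gy (RPL5, RPL6, RPL17 and RPL21).

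The difference between the doses was tested directly. A dye effect of a probe cancels in it. Between U87 10 Gy and U87 2 Gy, 13 of 77 members (16.9%) were higher and 9 (11.7%) lower at 10 Gy, beside 9.89% and 11.2% of all genes. The largest differences upward were those of RPL6, at 0.46 (adjusted p = 0.000376), and RPS13, at 0.44 (adjusted p = 0.000225). RPS13 stood at -0.38 and -0.34 in U87 2 Gy and at 0.04 and 0.12 in U87 10 Gy, and with median centring its 2 Gy value turned to 0.21. The other 2 probes of RPS13 differed by 0.13 (adjusted p = 0.0738) and 0.10 (adjusted p = 0.297), and one of them was called higher in U87 2 Gy, at 0.17, so the difference was called with 1 of 3 probes. The next was RPLP0, at 0.43 (adjusted p = 0.000302), with arrays at 0.01 and -0.07 against 0.44 and 0.36.

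The largest difference downward was that of RPS23. RPS23, a decoding centre protein, stood at 0.17 and 0.10 in U87 2 Gy and at -0.19 and -0.38 in U87 10 Gy, a difference of -0.42 (adjusted p = 0.0014). RPS23 was called higher at 2 Gy and lower at 10 Gy, and with median centring its 10 Gy value turned to 0.18. The count of differences was 0 when the 2 mismatched scans were kept under their labels, 11 without array 1 of U87 10 Gy and 13 without array 2.

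The step on adding Si306 was smaller at 10 Gy than at 2 Gy for most members. Each step is measured against cells of its own proton dose, so the difference is one between steps and not between levels in the Si306 cells. RPL39 and RPS25, for example, had steps that differed by -0.19 and -0.20 at 10 Gy, while their PT ratios were higher at 10 Gy by 0.35 and 0.26. For RPS25 the PT difference was called on its brightest probe only. The median difference was -0.14, with quartiles of -0.18 and -0.07, and 69 of 78 members lay below 0, against a median of -0.01 over all genes. The test called the step of 24 members (30.8%) lower and of 0 higher at 10 Gy by limma (41 and 1 at an unadjusted p under 0.05), beside 12.6% and 10.1% of all genes. The 164 other bright genes also leaned this way, with a median of -0.08, 25% called lower and 3.66% higher. The part of intensity in this difference was not tested.

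The largest difference was that of RPL37A, at -0.62 (adjusted p = 8.2e-05), and its other probe showed -0.23. RPL24, a protein of the bridge between the subunits, showed steps of 0.48 and 0.36 at 2 Gy and of 0.03 and 0.10 at 10 Gy, a difference of -0.35 (adjusted p = 0.00388). RPL27 differed by -0.34 (adjusted p = 0.00178) and RPL5 by -0.32 (adjusted p = 0.00285). Of the other members named for their role, RPL10 differed by -0.24, RPS27A by -0.22, RPS6 by -0.19 and RPL39 by -0.19, each past the test. RPL9, RPL13A and RPL35 were not among the 24, at -0.19 (adjusted p = 0.0915), -0.14 (adjusted p = 0.159) and -0.03 (adjusted p = 0.695). The count fell to 9 without array 1 of U87 Si306 + 2 Gy or without array 2 of U87 Si306 + 10 Gy and to 11 without array 1 of U87 Si306 + 10 Gy, and it was 8 with the mismatched scans kept.

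**Figure D4:**
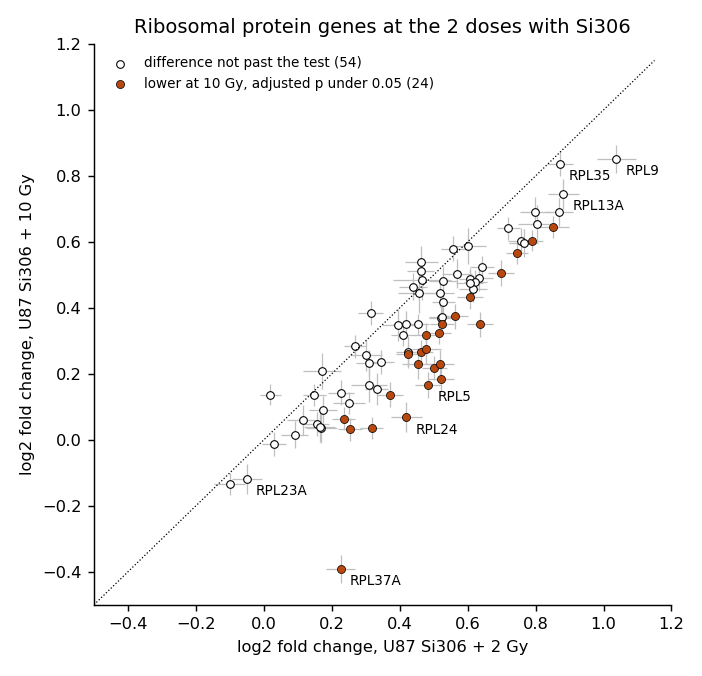
Log2 fold change of each ribosomal protein gene in U87 Si306 + 2 Gy (x) against U87 Si306 + 10 Gy (y), with SE bars; filled points are the 24 members whose difference passed the test at an adjusted p under 0.05 and the dotted line marks equal values. Most points lie below the line, RPL37A farthest, while RPL35 lies close to it.

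Genes that work with the ribosomal proteins were counted by lists. The mitochondrial ribosome reads the few mRNAs of the mitochondrial genome, and its 76 protein genes were called in both directions. In U87 Si306 + 2 Gy 24 were higher and 15 lower, in U87 Si306 + 10 Gy 24 were higher and 24 lower, and the medians were 0.03 and 0.01. In U87 2 Gy 24 were higher and 24 lower, and in U87 10 Gy 21 were higher and 22 lower. The shares in U87 Si306 + 10 Gy were 31.6% each way. The lists are read against the shares over all genes, which were 38.6% higher and 27.9% lower, then 35.2% and 27.2%, with Si306 and 32.2% and 25%, then 31.2% and 26.3%, with PT.

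Cytosolic ribosomal proteins that go by other names followed the members in part. Of 3 tested, 3 were higher with Si306 at 2 Gy and 2 at 10 Gy. With PT 3 were higher at 2 Gy and 1 at 10 Gy, and 0 were lower at either dose. FAU, whose product is cut into a ubiquitin-like part and RPS30, stood at 0.51 ± 0.05 and 0.49 ± 0.05 with Si306. GNB2L1, the scaffold protein RACK1, stood at 0.15 ± 0.03 (adjusted p = 0.00203) and -0.00 ± 0.03 (adjusted p = 0.909). RPSA was not analysed here. Of 7 tested paralogues outside the rule, 3 were higher and 0 lower at 2 Gy and 3 were higher and 2 lower at 10 Gy, and with PT 4 were higher and 1 lower at 2 Gy and 2 higher and 1 lower at 10 Gy.

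Of 16 tested genes for elongation factors and other mRNAs with a TOP tract, 8 were higher and 5 lower in each Si306 configuration, with medians of 0.09 and 0.08. EEF1A1, which brings the aminoacyl-tRNA to the ribosome, stood at 0.90 ± 0.03 (adjusted p = 5.89e-09) and 0.60 ± 0.03 (adjusted p = 1.16e-07). TPT1, a small tumour-linked protein, stood at 0.64 ± 0.03 and 0.48 ± 0.03, and EEF1G, of the exchange factor complex, at 0.51 ± 0.04 and 0.48 ± 0.04. IPO7, an import receptor of ribosomal proteins, was the only DEG of the list, at 1.03 ± 0.04 in U87 10 Gy and -1.16 ± 0.04 in U87 Si306 + 10 Gy. Its values at 2 Gy were 0.50 ± 0.04 and -0.53 ± 0.04. With PT, 5 of the 16 were higher and 7 lower at 2 Gy, and 6 were higher and 8 lower at 10 Gy. EEF1A1, TPT1 and EEF1G were named after their values were seen.

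Among the factors that build ribosomes, more genes were called lower than higher in each configuration, whereas over all genes more were called higher. Of 41 tested biogenesis factors, 12 were higher and 20 lower with Si306 at 2 Gy and 11 were higher and 17 lower at 10 Gy, with medians of -0.06 and -0.04. With PT 10 were higher and 16 lower at each dose. PES1, of the complex that matures the large subunit, was the DEG of this list, at 1.27 ± 0.04 and 1.25 ± 0.04 in the PT configurations and at 0.06 and 0.01 on adding Si306. Of 19 tested genes of RNA polymerase I, which makes the large rRNAs, 8 were higher and 6 lower, then 8 and 8, with Si306, and 6 and 6, then 8 and 6, with PT. Of 24 tested genes of the mTOR pathway and TOP regulators, 6 were higher and 11 lower, then 6 and 7, with Si306, and 10 and 10, then 10 and 12, with PT.

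**Figure D5:**
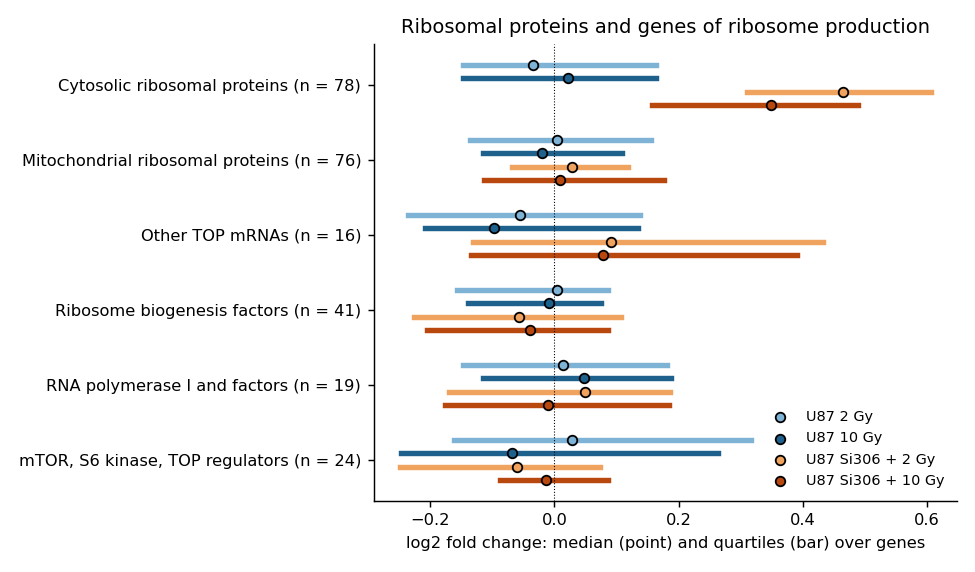
Median (point) and quartiles (bar) of the log2 fold change over genes for the cytosolic ribosomal proteins and 5 lists of genes that work with them, in the 4 configurations. With Si306 the cytosolic ribosomal proteins had medians of 0.47 and 0.35, and the medians of the other lists lay between -0.06 and 0.09.

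The TOP tract was common among the members. The RefSeq promoter table held 61 of 78 members, and 50 of these (82.0%) had a tract at a start, against 4374 of 27305 genes in the table (16%). The members with a tract had medians of 0.50 and 0.38 with Si306, and 49 and 43 of the 50 were higher. The 11 without one were RPL4, RPL6, RPL9, RPL10L, RPL15, RPL17, RPL27, RPS4X, RPS15, RPS26 and RPS29, with medians of 0.41 and 0.19, and 9 and 7 were higher. RPL9, the highest member, was thus in the group without a tract, while RPL37A, called lower at 10 Gy, was in the group with one. The 17 members without an entry had medians of 0.42 and 0.24.

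The cores of 4 further motifs were searched on both strands, from 250 bases before to 50 bases after the start. The ETS core CCGGAAG was found in 22 of 61 members (36.1%) and in 12.2% of all genes in the table. The SP1 core GGGCGG was found in 57.4% and 48.3%, the YY1 core AAGATGG in 11.5% and 7.11%, and the TATA box TATAAA in 9.84% and 14%. A match is a run of letters and not a shown site, and different starts of a gene counted as 1 gene.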

How the data were processed

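The authors extracted total RNA, amplified it, labelled treated cRNA with Cy5 and control cRNA with Cy3, hybridised 4x44K arrays and read them with Agilent Feature Extraction, whose version is not given in the sources used here. The deposited scanner files hold the intensity of each spot and its background in both channels, not normalized, and the software's log ratio. The deposited value table holds the same log10 ratios of Cy5 over Cy3, within 0.005. The authors' test settings for single genes were not used. The file headers placed 24 scans on 8 arrays, although the labels number 6 replicates in each group. In each of 2 scans the header named an array whose other scans carried the label of the other proton dose. These scans were left out.

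From the mean signal and median background of each channel, normexp background correction (offset 50) and loess within each scan were computed with limma 3.58.1 in R 4.3.3. Outlier-flagged spots (2.98% to 5.73% of gene spots) were left out, also of the normexp fit. With all spots in that fit, the fitted background mean lay below -20 in 40 of 48 channels of scans, and the lowest was -1278. A probe was kept where 2/3 of the arrays or more had it well above background in Cy5 or Cy3, 30329 of 41000, and the brightest kept probe stood for a gene name. Scans of an array were averaged. lmFit and eBayes were run on 22859 genes with 4 configuration means and 4 residual degrees of freedom, with a prior of 6.575 degrees of freedom. P-values were adjusted by the Benjamini-Hochberg method over all genes. A gene was called at an adjusted p under 0.05, and a DEG had a log2 fold change of at least 1 in size as well. From 63.4% to 74.7% of spots were well above background in Cy5 and from 57.3% to 66.5% in Cy3, and no member spot was saturated.

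The members, lists and tests were chosen with earlier results of these data known. Members named were, in each configuration, the 3 highest and 3 lowest past the test with the same sign on every measured array, every DEG, the 2 largest dose differences each way and members of a known role, 32 in all. RPL12, RPL27 and members named only for their probes or in lists lie outside these 32. They were not among the named values followed across the alternatives. A few genes are not reported here. Other genes named were DEGs of a list or stood in a list of 5 or fewer, unless the text says otherwise. Alternatives were other background corrections and normalizations, filters, probe rules, scans as units, blocks and arrays left out. Probe sequences came from the scanner files and promoter sequences from RefSeq (GRCh38.p14).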

Additional observations from a re-analysis of the deposited data

Results flagged for a closer look

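Differences between the 2 doses under the same contrast, each tested in the fit itself, were set aside here. Between the PT doses, 22 members differed. Those named by the rule above were RPL6 (0.46), RPS13 (0.44), RPLP0 (0.43), RPL39 (0.35), RPL10L (0.27), RPS25 (0.26), RPL24 (0.24), RPL3 (0.21) and RPL39L (0.17) upward at 10 Gy, and RPS23 (-0.42) downward, on the log2 scale. The other probes of RPS25 differed by 0.02 and -0.11, and those of RPS13 by 0.13 and 0.10, none past the test.

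The step on adding Si306, each measured against cells of the same proton dose, differed between the doses for 24 members, and was lower at 10 Gy in all of them. Those named by the rule above were RPL37A (-0.62), RPL24 (-0.35), RPL5 (-0.32), RPL10 (-0.24), RPS27A (-0.22), RPS25 (-0.20), RPS6 (-0.19) and RPL39 (-0.19). RPL27 (-0.34), given in the text outside that rule, was also among the 24.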

How the results depend on the processing

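The members' median with Si306 stayed above 0 under every alternative run, and the median of the PT configurations did not keep its sign. With median centring in place of loess, the members' medians were 0.45 and 0.43 with PT at 2 and 10 Gy, 1.47 and 1.00 with Si306 at these doses, and -0.033 and -0.40 for the differences between PT doses and between Si306 doses, in which 14 and 71 members were called. Under it, named values of the other sign were RPS13 0.21, RPLP2 0.17, RPS6 0.23, RPL22 0.20, RPL39L 0.071 and RPL39 0.046 in U87 2 Gy, RPL6 0.15, RPS25 0.075, RPS23 0.18, RPLP2 0.063, RPS6 0.15 and RPL39 0.26 in U87 10 Gy, RPL3L -0.19 with Si306 at 2 Gy, and RPL23A 0.60, RPL37A 0.26, RPL4 0.42 and RPL3L -0.011 with Si306 at 10 Gy. Loess takes out the trend of the ratio with intensity and centring does not.

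With the scanner log ratios, and with the value table, the medians were -0.011 in U87 10 Gy and 0.32 and 0.24 with Si306, 12 and 11 dose differences were called, and RPS20 stood at -0.060 and -0.095 and RPL19 at -0.041 and -0.027 in the Si306 configurations, and RPL11 at -0.049 in the first. With the mean of a gene's probes, the Si306 medians were 0.42 and 0.32, RPL6 stood at 0.044 in U87 10 Gy and RPL23A at 0.030 in U87 Si306 + 10 Gy. With the normexp parameters fitted on all spots, chosen after seeing the data, 28 and 33 members were called with PT and 2 and 4 in the dose differences, and the medians were -0.13 and -0.013 with PT, 0.28 with Si306 at 10 Gy, and 0.075 and -0.17 in the dose differences.

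Against a fold change of 1.2, the test called 10, 6, 51 and 33 members in the 4 configurations and 0 and 1 in the dose differences (6 and 1 at an unadjusted p under 0.05). Without the filter on dim probes the difference between Si306 doses held 14 calls. With the 2 mismatched scans kept, the median in U87 2 Gy was -0.00213, RPS23 stood there at -0.0071, and 0 and 8 dose differences were called by limma (4 and 23 at an unadjusted p under 0.05). Every scan as a replicate gave 41 and 53 calls. The replicate number of the labels as a block, with scans as units, gave 60, 61, 75 and 71 calls in the configurations and 38 and 53 in the dose differences. The numbers name repeat scans of the same arrays and pair no samples. With 1 array left out at a time (leaving a lone array, assumed to vary like the others), the median ranged from 0.44 to 0.51 in U87 Si306 + 2 Gy and from -0.16 to -0.10 for the difference between Si306 doses, and dose differences from 11 to 22 calls for PT and from 9 to 27 for Si306. The cause was not tested in these cases. Of 113 named values past the test, none changed sign when 1 array was left out, and 3 to 16 fell below the threshold.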
